A study of Mus musculus with 6 samples.

Results

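The Bcl2 family of apoptosis regulators was examined through 10 of its genes, listed by name. They fall into 3 guard genes that block apoptosis (Bcl2, Bcl2l1 and Mcl1), 2 effector genes whose products perforate the outer mitochondrial membrane (Bax and Bak1) and 5 BH3-only genes whose products start or license that step (Bad, Bid, Bik, Bcl2l11 and Bbc3). All 10 were measured, out of 20263 named genes on the array, and together they had 13 of its 32025 probe sets.

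In this family the guard proteins hold the effectors and the BH3-only proteins in check by binding them. When BH3-only proteins outnumber the free guards, the effectors assemble into pores, cytochrome c leaves the mitochondria and caspases are activated. In the prostate, androgen withdrawal removes much of the luminal epithelium by apoptosis and androgen return regrows it, and BCL2 protein is known chiefly from the basal layer of the gland, which survives castration.

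The data were array measurements of regenerating prostate from 3 Gli1-/- mice, labelled as loss-of-function mutants, and 3 wild-type mice. All 6 mice were 10 weeks old, had been castrated at 8 weeks, received a testosterone pellet under the skin 2 weeks later and were sampled 3 days after that. Each sample was RNA of the combined ventral and dorsolateral lobes of 1 mouse. No source used here gives the strain of the mice or the part of Gli1 that the mutation removes. Gli1 encodes a transcription factor of the Hedgehog pathway that is also one of its targets.

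Values are log2 intensities, on which a difference of 1 is 2-fold, and differences are given as Gli1-/- minus wild type. Array medians lay between 6.76 and 6.95. The Gli1 probe set read 6.34, 6.27 and 6.29 in the Gli1-/- mice and 6.28, 6.48 and 6.51 in wild type, so the groups overlapped and it gives no check of the genotype labels. After quantile normalization (log2 difference -0.13) or median centring (-0.13) all 3 Gli1-/- mice were below all 3 wild-type mice, and without wild-type mouse 1 (-0.19) they were below the other two, so the overlap depends on the setting. Gli1 was below 6.87, the median of all deposited values, in every mouse. Arrays can compress differences of dim genes, and whether they did so here was not measured. Prostate markers were bright in all mice, with the secretory gene Tgm4 at 12.92 to 13.01 in the Gli1-/- mice and 13.38 to 13.58 in wild type, and the luminal keratin gene Krt8 at 12.43 to 12.66 against 12.28 to 12.44. Summed seminal vesicle markers stood apart in Gli1-/- mouse 2 (11.34) and wild-type mouse 3 (11.12), against 7.42 to 8.04 in the other mice. A lobe sample holds many cell types, so fewer cells of a type and less RNA per cell cannot be told apart.

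Bcl2 and Bid were the 2 family transcripts with higher values in every Gli1-/- mouse than in any wild-type mouse, and the other 8 overlapped between the groups. None of the 10 passed the limma test over all genes at an adjusted p under 0.05, a rule that called 0.0197% of all genes. At an unadjusted p under 0.05, which 10.5% of all genes met, limma had Bcl2 and Bid, 2 of 10. The groups did not overlap for 2 of 10 members, against 14.3% of all genes (8.34% for higher values in Gli1-/- mice). That count was 4 of 10 without wild-type mouse 1 and 4 of 10 without Gli1-/- mouse 3, where the share of all genes was 36% and 20.4%. Without both wild-type mouse 1 and Gli1-/- mouse 2 it was 6 of 10, against 53.9% of all genes.

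**Figure D1:**
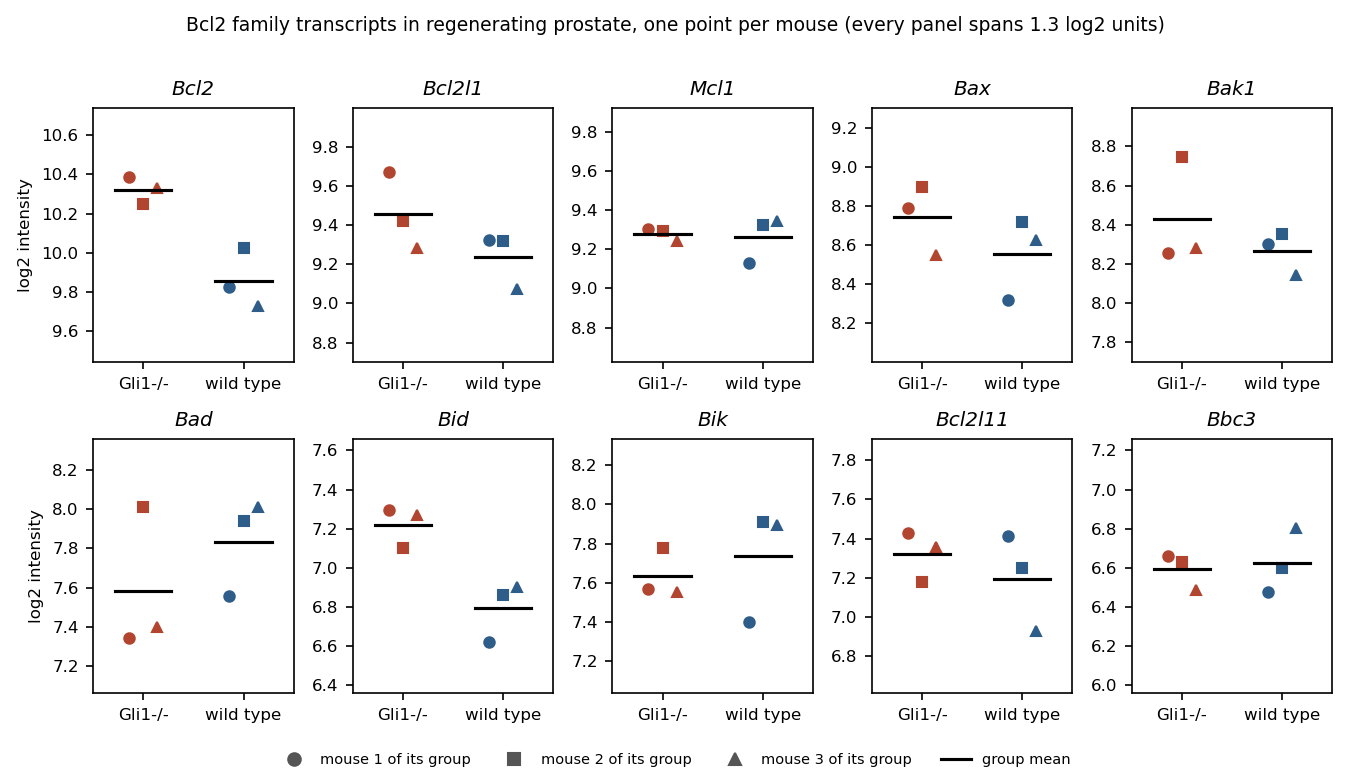
Log2 intensity (vertical axes, each spanning the same range) of the 10 Bcl2 family transcripts in 3 Gli1-/- mice on the left and 3 wild-type mice on the right of each panel; point shapes mark the mouse number within its group and bars the group mean. Only the Bcl2 and Bid panels show 2 groups that do not overlap.

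Bcl2 encodes the founding guard protein, which sits on mitochondria and the endoplasmic reticulum and binds BH3-only proteins and Bax. It read 10.39, 10.25 and 10.33 in the Gli1-/- mice and 9.83, 10.02 and 9.73 in wild type. The lowest Gli1-/- value, that of mouse 2, lay above the highest wild-type value, that of wild-type mouse 2. The group means were 10.32 ± 0.07 and 9.86 ± 0.15 (SD, n = 3 each), 1.38-fold apart. The log2 difference of 0.46 had a 95% interval from 0.21 to 0.72 (limma adjusted p = 0.221).

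Another, dimmer Bcl2 probe set for another transcript of the gene read 10.28, 10.12 and 10.16 in the Gli1-/- mice and 9.70, 9.78 and 9.52 in wild type. Its groups were also apart, with a log2 difference of 0.52 (SE 0.11). Probe sets of transcripts of 1 gene can share probes, so this is not a separate measurement. With 1 mouse left out at a time the Bcl2 difference stayed between 0.40 and 0.55, with limma adjusted p from 0.179 to 0.524.

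Bid encodes the BH3-only protein that caspase-8 cleaves, which links death receptors at the cell surface to the mitochondria. It read 7.29, 7.10 and 7.27 in the Gli1-/- mice and 6.62, 6.86 and 6.90 in wild type. Again Gli1-/- mouse 2 was the lowest of its group and still lay above all wild-type mice. Wild-type mice 1 and 2 were below 6.87, the median of all deposited values, and wild-type mouse 3 was just above it. The means were 7.22 ± 0.11 and 6.80 ± 0.15 (SD, n = 3 each), 1.34-fold apart. The log2 difference of 0.43 had a 95% interval from 0.16 to 0.69 (limma adjusted p = 0.269). With 1 mouse left out at a time the Bid difference ranged from 0.34 to 0.49, with limma adjusted p from 0.209 to 0.623.

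The 250 bases before the annotated start sites of Bcl2 and Bid are shown because these were the 2 separated members, and those of Mcl1 because its 2 group means were closest. The sequences are RefSeq's, in build GRCm38.p6, at chr1:106714291-106714540 (Bcl2, minus strand), chr6:120916825-120917074 (Bid, minus strand) and chr3:95658471-95658720 (Mcl1, plus strand), each printed 5′ to 3′ on the gene's own strand. Capitals mark GC boxes, GGGCGG or its reverse complement CCGCCC.
Bcl2: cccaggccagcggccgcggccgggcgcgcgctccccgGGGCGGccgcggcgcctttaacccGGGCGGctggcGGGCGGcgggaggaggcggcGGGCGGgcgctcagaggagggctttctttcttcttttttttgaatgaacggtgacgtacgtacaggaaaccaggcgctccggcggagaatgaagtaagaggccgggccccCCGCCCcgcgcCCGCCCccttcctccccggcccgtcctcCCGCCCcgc
Bid: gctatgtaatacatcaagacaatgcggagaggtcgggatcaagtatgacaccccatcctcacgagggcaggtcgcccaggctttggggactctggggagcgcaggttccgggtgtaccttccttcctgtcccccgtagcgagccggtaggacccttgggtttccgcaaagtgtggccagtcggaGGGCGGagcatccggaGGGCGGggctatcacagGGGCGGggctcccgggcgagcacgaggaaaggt
Mcl1: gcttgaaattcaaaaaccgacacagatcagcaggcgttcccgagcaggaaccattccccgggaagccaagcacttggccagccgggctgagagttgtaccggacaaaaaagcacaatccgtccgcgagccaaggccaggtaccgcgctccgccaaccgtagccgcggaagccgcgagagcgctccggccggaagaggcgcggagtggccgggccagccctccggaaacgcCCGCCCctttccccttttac

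The Bcl2 window held 7 GC boxes and 74.8% G and C, the Bid window 3 and 63.6%, and the Mcl1 window 1 and 64.4%. GC boxes are common promoter elements bound by Sp1-type factors, and 32.7% of 32851 RefSeq windows of this length held one. Windows were found for 9 of the 10 members, 15 in all, and 10 of the 15 held a GC box. The consensus site of Gli factors, GACCACCCA or TGGGTGGTC, was in 0 of the 15, against 0.225% of all windows. Its inner letters CCACCC or GGGTGG, which can overlap a GC box, were in 5 of the 15, against 28.1% of all windows, in Bcl2l1, Bad, Bcl2l11 and Bbc3. The windows of Bbc3 start sites 2 and 3 overlap, and the same matches to these inner letters were counted in both. In human cells GLI proteins have been reported to act on the BCL2 gene, and a missing match says only that these letters are not in this window.

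The other 2 guards did not separate. Bcl2l1, whose main product Bcl-xL keeps neurons, platelets and developing red cells alive, read 9.67, 9.42 and 9.29 in the Gli1-/- mice and 9.32, 9.32 and 9.07 in wild type. Gli1-/- mice 1 and 2 were above all wild-type mice and Gli1-/- mouse 3 was inside their range. The log2 difference was 0.22 (SE 0.13, 95% interval -0.08 to 0.52, limma adjusted p = 0.609). It was 0.114 without Gli1-/- mouse 1, 0.31 without Gli1-/- mouse 3 and 0.09 with array weights.

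Mcl1 encodes a short-lived guard protein that cells must keep resynthesising. It read 9.31, 9.29 and 9.24 in the Gli1-/- mice and 9.13, 9.32 and 9.34 in wild type. All 3 Gli1-/- values lay inside the wild-type range, and their SD of 0.035 was the smallest of any member in either group. The log2 difference of 0.01 had a 95% interval from -0.21 to 0.24 (limma adjusted p = 0.981).

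The effector genes both had slightly higher means in the Gli1-/- mice with overlapping groups. Bax, a p53 target whose product moves from the cytosol into the mitochondrial membrane, read 8.79, 8.89 and 8.55 in the Gli1-/- mice and 8.32, 8.72 and 8.63 in wild type. Gli1-/- mouse 3 lay below 2 of the wild-type mice. Its log2 difference was 0.19 (SE 0.14, limma adjusted p = 0.699), and it was -0.04 when arrays were weighted by their estimated quality.

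Bak1, the effector that already resides in the mitochondrial membrane, read 8.26, 8.74 and 8.28 in the Gli1-/- mice and 8.30, 8.35 and 8.14 in wild type. Gli1-/- mouse 2 alone stood above all other mice, and the other 2 mutants were within the wild-type range. The log2 difference was 0.16 (SE 0.15, limma adjusted p = 0.764), and 0.0055 without Gli1-/- mouse 2.

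Among the BH3-only genes other than Bid, means differed in either direction and no groups separated. Bad, whose product is silenced by phosphorylation downstream of growth factors and Akt, read 7.34, 8.01 and 7.40 in the Gli1-/- mice and 7.56, 7.94 and 8.01 in wild type. Gli1-/- mice 1 and 3 were below all wild-type mice, while Gli1-/- mouse 2 was level with the highest of them. Its SD of 0.37 among Gli1-/- mice was the largest of any member in either group, and the log2 difference was -0.25 (SE 0.20, limma adjusted p = 0.726). With 1 mouse left out it ranged from -0.46 (without Gli1-/- mouse 2) to -0.13 (without Gli1-/- mouse 1). It was -0.60 without Gli1-/- mouse 2 and wild-type mouse 1 together, where Bad passed (limma adjusted p = 0.0432) along with 4.28% of all genes.

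Bik, a BH3-only gene whose product acts largely at the endoplasmic reticulum, read 7.57, 7.78 and 7.55 in the Gli1-/- mice and 7.40, 7.91 and 7.90 in wild type. The 3 Gli1-/- values lay between wild-type mouse 1 and the other 2 wild-type mice. The log2 difference was -0.10 (SE 0.16, limma adjusted p = 0.89), and with 1 mouse left out it ranged from -0.27 (without wild-type mouse 1) to -0.0145 (without wild-type mouse 2).

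Bcl2l11 encodes Bim, which binds every guard and is induced when survival signals are lost. Its brightest of 3 probe sets read 7.43, 7.18 and 7.36 in the Gli1-/- mice and 7.41, 7.25 and 6.93 in wild type. Wild-type mouse 3 was the lowest, and the Gli1-/- mice lay inside the range of wild type but for mouse 1, the highest of all. The 3 probe sets differed by 0.13 to 0.15 on the log2 scale, and the brightest by -0.0071 without wild-type mouse 3.

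Bbc3 encodes Puma, the main BH3-only target of p53. It read 6.66, 6.63 and 6.49 in the Gli1-/- mice and 6.48, 6.60 and 6.80 in wild type. The groups overlapped almost fully, with a log2 difference of -0.03 (SE 0.12, limma adjusted p = 0.964). Bbc3 was below the median of all deposited values (6.87) in every mouse. Arrays can compress differences of dim genes, which was not measured here.

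**Figure D2:**
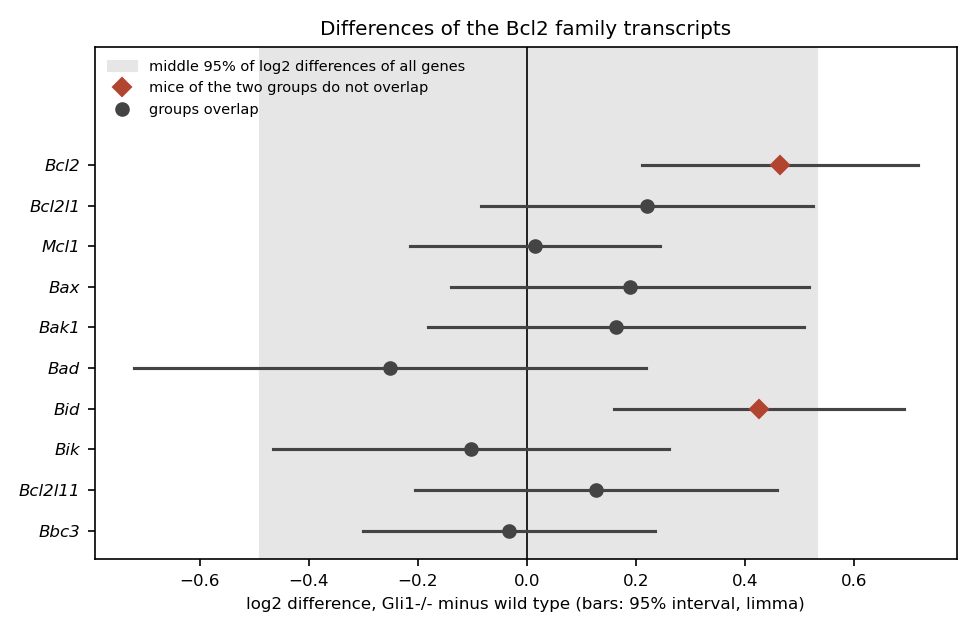
Log2 difference, Gli1-/- minus wild type (horizontal axis), of each member with its 95% interval from limma; the grey band spans the middle 95% of the differences of all genes, from -0.49 to 0.53. The intervals of Bcl2 and Bid lie above 0 and those of the other 8 members include 0, and all 10 differences lie inside the band.

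By role, among the 10 members only, all 3 guards and both effectors had positive differences, with medians of 0.22 and 0.18. Of the 5 BH3-only genes 2 did, with a median of -0.03. Bcl2l2, another guard gene, counted below with the other Bcl2 relatives, differed by -0.29 (SE 0.12). Over the 10 members 7 were positive and the median was 0.15, against 48.5% positive and a median of -0.0048 over all genes. The members' median was 0.06 without Gli1-/- mouse 2, -0.018 with array weights and 0.0098 without wild-type mouse 1 and Gli1-/- mouse 2 together, so its direction depends on the setting. Of the 10 members, 6 had an SD above the median of all genes among the Gli1-/- mice (0.118), and 5 did in wild type (0.155).

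The lowest values of the family fell mostly in 2 wild-type mice. Wild-type mouse 1 had the lowest value for 5 members (Mcl1, Bax, Bid, Bik and Bbc3) and wild-type mouse 3 for 4 (Bcl2, Bcl2l1, Bak1 and Bcl2l11), while Gli1-/- mouse 1 had the lowest value of Bad. Wild-type mouse 1 also had the lowest array median. After centring each array on its median, those 2 wild-type mice had the lowest value for 4 members each. Gli1-/- mouse 1 had the highest value for 4 members before and after centring. Wild-type mouse 3 also had the highest value for 3 members (Mcl1, Bad and Bbc3), and for 1 after centring. How often each mouse was lowest or highest over all genes was not counted.

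The guard and effector transcripts were also set against each other within each mouse, since apoptosis depends on their protein ratio. After centring on the wild-type mean, the log2 value of Bcl2 minus that of Bax was 0.29, 0.05 and 0.48 in the Gli1-/- mice and 0.20, 0.0002 and -0.20 in wild type. Gli1-/- mouse 2 lay below wild-type mouse 1, so the groups overlapped, at 0.27 ± 0.21 and 0 ± 0.20 (SD, n = 3 each). Bcl2l1 minus Bax averaged 0.03 ± 0.18 in the Gli1-/- mice and 0 ± 0.29 in wild type, and Mcl1 minus Bax -0.17 ± 0.15 and 0 ± 0.10, again with overlap. No test was made of these 3 differences.

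**Figure D3:**
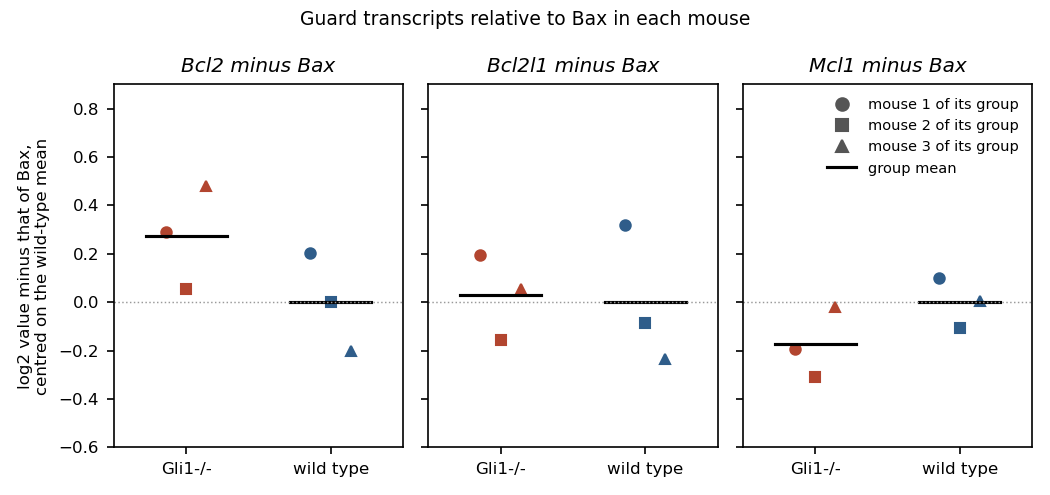
Log2 value of each guard transcript minus that of Bax in the same mouse, centred on the wild-type mean (vertical axis, shared), in 3 Gli1-/- mice and 3 wild-type mice; point shapes mark the mouse number and bars the group mean. The 2 groups overlap in all 3 panels.

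Summed levels of several cell type marker lists were higher in the Gli1-/- mice, with 0 genes called by limma in any marker list. Skeletal muscle markers, 11 of 11 higher, and macrophage and myeloid markers, 14 of 14 higher, had the largest positive mean differences of the sums (0.65 and 0.53), and both sums overlapped between the groups. Of the 14 macrophage genes, 10 had separated groups, as had 3 of 10 endothelial and 5 of 14 lymphocyte genes, where 14.3% of all genes had. The summed level of 10 endothelial markers was 11.43 to 11.61 in the Gli1-/- mice and 11.14 to 11.29 in wild type, with 10 of 10 genes higher in the mutants. That of 14 lymphocyte markers was 10.13 to 10.45 and 9.83 to 10.04, with 11 of 14 higher and the pan-leukocyte gene Ptprc at 7.02 to 7.54 against 6.39 to 6.69. Both lists had groups that did not overlap, as had the smooth muscle and prostate secretory lists given below, which were lower in the Gli1-/- mice.

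Basal epithelial markers, among which Bcl2 is often counted, summed to 13.00 to 13.32 in the Gli1-/- mice and 12.77 to 13.13 in wild type, with 12 of 14 higher and overlapping groups. The basal regulator gene Trp63 did separate, at 9.96 to 10.07 against 9.31 to 9.90, and the basal keratin gene Krt5 did not, at 10.44 to 10.94 against 10.30 to 10.81. Macrophage and myeloid markers summed to 12.82 to 13.43 against 12.34 to 12.91. Fibroblast, luminal and skeletal muscle sums were 14.06 to 14.43, 15.28 to 15.39 and 11.09 to 12.37 in the Gli1-/- mice, against 13.97 to 14.25, 15.16 to 15.32 and 10.70 to 11.46 in wild type, all overlapping. Adipocyte markers overlapped as well, at 10.14 to 10.54 against 10.12 to 10.48.

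Other lists were lower in the Gli1-/- mice. Smooth muscle markers summed to 13.23 to 13.68 against 13.73 to 14.22, with 0 of 11 higher, and prostate secretory products to 15.49 to 15.64 against 15.86 to 16.23, with 1 of 10 higher and the secretory gene Pbsn at 11.96 to 12.61 against 12.80 to 13.40. Mitosis genes summed to 11.85 to 12.71 against 12.49 to 12.99, with 0 of 16 higher and overlapping groups. The part of any of these cell types in the family's values was not tested.

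**Figure D4:**
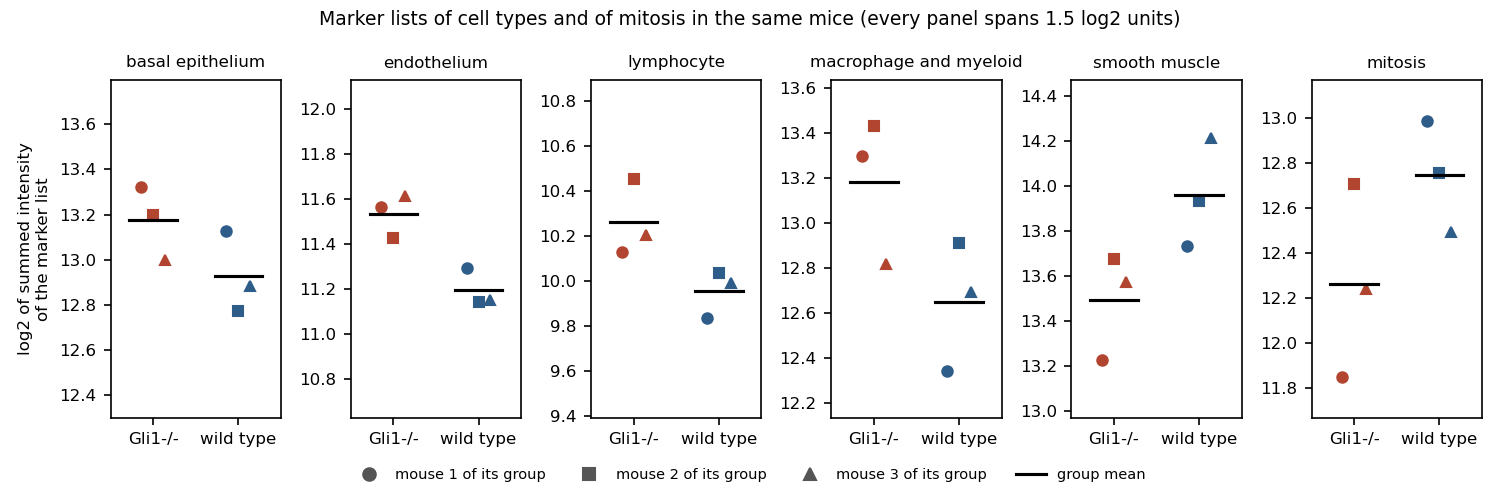
Log2 of the summed linear intensity of 6 marker lists (vertical axes, each spanning the same range) in 3 Gli1-/- mice and 3 wild-type mice; point shapes mark the mouse number and bars the group mean. The endothelial, lymphocyte and smooth muscle lists separate the groups, and the basal, macrophage and mitosis lists overlap.

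The remaining genes of the apoptosis pathway were counted in 6 lists, and limma called 0 genes in each of them at an adjusted p under 0.05. The other Bcl2 relatives showed little difference, with 4 of 14 positive, a median of -0.02 and 1 separated gene. At an unadjusted p under 0.05 limma had 2 of the 14. Over all genes 14.3% had separated groups and 10.5% met that unadjusted p. Bcl2l14, a relative whose part in apoptosis is not settled, read 7.79, 8.22 and 8.13 in the Gli1-/- mice and 7.65, 7.78 and 7.66 in wild type (log2 difference 0.35, SE 0.13). Gli1-/- mouse 1 was only just above the highest wild-type mouse. Bcl2l2, which encodes the guard Bcl-w, differed by -0.29 (SE 0.12) and Bnip3l, a mitophagy receptor gene, by -0.27 (SE 0.18), both with overlap.

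Downstream of the mitochondria, Apaf1 separated the groups tightly. Its product is the scaffold of the apoptosome, on which released cytochrome c activates caspase-9. Apaf1 read 7.80, 7.85 and 7.81 in the Gli1-/- mice and 7.51, 7.52 and 7.42 in wild type (log2 difference 0.33, SE 0.09, limma adjusted p = 0.264). All 3 mutants lay well above the wild-type range. Casp2, an initiator caspase gene, was separated as well, with a difference of 0.20 (SE 0.11). The protease gene Htra2 had a negative difference of -0.11 (SE 0.10) with overlap. Of the 16 genes of this list 2 were separated, 9 were positive, 1 had an unadjusted limma p under 0.05, and the median was 0.03. Separated genes were 12.5% of this list, against 14.3% of all genes, and 10.5% of all genes had such a p.

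Among inhibitors of apoptosis 7 of 12 genes had separated groups, 5 higher and 2 lower in the Gli1-/- mice, against 14.3% of all genes. Of the 12, 5 had an unadjusted limma p under 0.05, against 10.5% of all genes. Of the 5 higher genes, 4 belong to the Naip cluster. Naip6 read 6.44, 6.75 and 6.54 in the Gli1-/- mice and 5.88, 5.50 and 5.24 in wild type (log2 difference 1.03, SE 0.17, limma adjusted p = 0.109). Naip1 differed by 1.00 (SE 0.21), and Naip5 and Naip2, chosen after their values were seen, by 0.52 (SE 0.14) and 0.40 (SE 0.15). Mouse Naip genes are close copies that can share probes, so these are not independent readings, and their products are known chiefly as inflammasome sensors of bacterial proteins. Naip6 and Naip1 were below 6.87, the median of all values, in every mouse, and Naip5 and Naip2 in every wild-type mouse. Naip5 was above it only in Gli1-/- mice 1 and 2, and Naip2 only in Gli1-/- mouse 2. Without dim probe sets, which removed all 4 Naip genes, the lowest adjusted p of the list was 0.343 by limma. Macrophage and myeloid marker sums were higher on average in the same mice, and their part was not tested. Birc6, a giant ubiquitin ligase gene, was lower in all 3 mutants by -0.36 (SE 0.14), while the mitotic gene Birc5 overlapped at -0.44 (SE 0.25). Birc3 at 0.16 and the caspase-8 inhibitor gene Cflar at -0.17, also chosen after their values were seen, complete the 7. The median of the list was 0.03.

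Death receptor genes, which act upstream of Bid, had 12 of 16 positive differences and a median of 0.14. Of the 16, 5 separated the groups, all higher in the Gli1-/- mice, and 5 had an unadjusted limma p under 0.05. Over all genes 14.3% were separated, 8.34% with higher values in Gli1-/- mice, and 10.5% had such a p. Tnfsf10, which encodes the death ligand TRAIL, read 7.28, 6.84 and 6.91 in the Gli1-/- mice and 6.19, 6.54 and 6.23 in wild type (log2 difference 0.69, SE 0.15, limma adjusted p = 0.214). Every mutant lay above every wild-type mouse. The receptor gene Tnfrsf1a differed by 0.35 (SE 0.10). Tnfrsf21, Ripk3 and the TRAIL receptor gene Tnfrsf10b, chosen after their values were seen, differed by 0.59 (SE 0.18), 0.28 (SE 0.11) and 0.23 (SE 0.11) and complete the 5. The cytokine gene Tnf, chosen in the same way, differed by 0.40 (SE 0.15) with overlap. Tnf lay below 6.87, the median of all deposited values, in every mouse, and Tnfsf10 and Ripk3 did in every wild-type mouse. Fas and Cyld were the genes with the smallest p among negative differences, at -0.06 (SE 0.16) and -0.04 (SE 0.11). Macrophage and lymphocyte marker sums, given above, were higher on average in the same mice, and their part was not tested.

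Genes of the p53 network and of stress signalling, some of which regulate family genes, had differences in both directions. Of 22 genes, 2 were separated upward and 3 downward, 4 had an unadjusted limma p under 0.05, and the median was 0.05. Separated genes were 22.7% of this list, against 14.3% of all genes, and 10.5% of all genes had such a p. Trp63 differed by 0.49 (SE 0.16) with separated groups and Trp53, whose product activates Bax and Bbc3, by 0.44 (SE 0.18) with overlap. Ddit3, which encodes the stress factor Chop, a repressor of Bcl2 and activator of Bcl2l11, read 7.32, 7.35 and 7.38 in the Gli1-/- mice and 7.59, 8.12 and 8.00 in wild type (log2 difference -0.55, SE 0.14, limma adjusted p = 0.255). All 3 mutants were below the wild-type range. Atf4, which acts upstream of Ddit3, differed by -0.35 (SE 0.13) with separated groups. The other separated genes, chosen after their values were seen, were Ppp1r13b, which encodes a p53 partner, at 0.15 (SE 0.11) and the cell-cycle factor gene E2f1 at -0.32 (SE 0.14).

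Genes whose products phosphorylate, degrade or hold family proteins differed little, and 0 of 18 had an unadjusted limma p under 0.05. Of the 18, 1 was separated upward and 2 downward, and the median was 0.02. Separated genes were 16.7% of this list, against 14.3% of all genes. The share of all genes with an unadjusted limma p under 0.05 was 10.5%. Akt2, a kinase gene, differed by 0.28 (SE 0.14) with separated groups and Akt1, whose product phosphorylates Bad, by 0.11 (SE 0.10) with overlap. Ppp3ca, a subunit gene of the phosphatase calcineurin that dephosphorylates Bad, differed by -0.19 (SE 0.09) with separated groups, and Becn1, whose product the guard proteins bind, by -0.19 (SE 0.11) with overlap. Dynll2, a dynein light chain gene chosen after its values were seen, was the other gene separated downward, at -0.12 (SE 0.09).

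**Figure D5:**
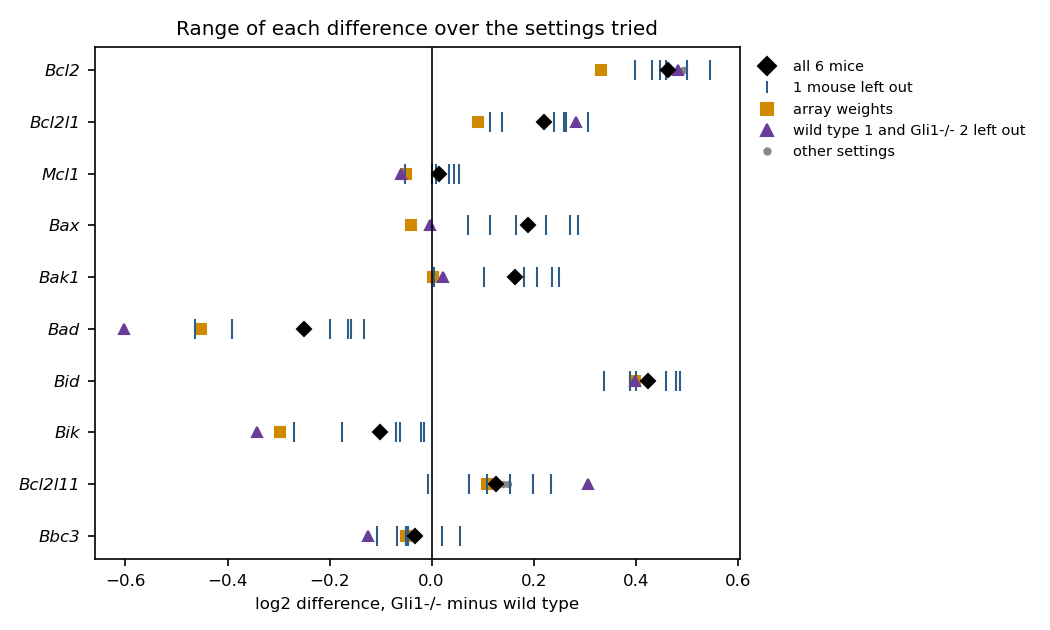
Log2 difference, Gli1-/- minus wild type (horizontal axis), of each member with all 6 mice, with 1 mouse left out, with array weights, with wild-type mouse 1 and Gli1-/- mouse 2 both left out, and under the other settings. Bcl2 stays between 0.33 and 0.55 and Bid between 0.34 and 0.49, while Mcl1, Bax, Bcl2l11 and Bbc3 fall on both sides of 0.

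The Bcl2 and Bid groups stayed apart under quantile normalization and median centring, and Bcl2 also with the mean of its probe sets. The other settings leave the values of each mouse as they are or only remove mice, so they could not have made separated groups overlap. For the same reason those settings could not have made the Bcl2 or Bid difference negative, and both were positive in all 16 alternatives. An unadjusted limma p under 0.05 was met in 15 of 16 for each. The alternatives reuse the same mice, so these counts add no separate evidence. In the main fit 10.5% of all genes met that p, and their share in each alternative was not counted. Of the other members, Bcl2l1, Bak1, Bad and Bik kept their direction, and Mcl1, Bax, Bcl2l11 and Bbc3 did not. Array weights, under which 23.1% of all genes were called, were the only setting in which Bcl2 (0.33, limma adjusted p = 0.0196) and Bid (0.40, limma adjusted p = 0.0129) passed.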

How the data were processed

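RNA of 6 regenerating prostates was labelled with biotin and hybridised to 1-colour Affymetrix arrays, per the labels' protocols. The authors deposited log2 intensities, 1 column per mouse, used here as deposited. The submitters' processing notes list RMA and Partek, with neither role nor version. RMA subtracts background and summarises probes, which compresses differences of dim genes. The array model, probe-set definition and build are stated in no source used here.

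Of 32025 probe sets, 25343 (79.1%) matched 1 gene through RefSeq transcripts of GRCm38.p6, used for names, 0 several and 6682 none. Where a gene had more than 1, the brightest stood for it. Gli1-/- minus wild type was fitted over 20263 genes with limma 3.58.1 (lmFit, eBayes; R 4.3.3), two-sided, with no covariate and Benjamini-Hochberg adjustment. Errors are SDs over 3 mice and SEs of the moderated fit, and the number of arrays, each of a different mouse, limits their precision. The fit was tested on simulated data with independent noise and changes larger than that of any member. That test does not cover differences of the size given here.

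Members and lists were chosen with earlier results of these data known. The text names all members, Gli1, 6 defining markers and, per pathway list, up to 2 genes of smallest unadjusted p in each direction, of which some are not reported here; others are marked. The lists held 252 genes, of which 248 were measured; the rest, among them 3 Bcl2a1 genes, are not analysed here. Marker lists were summed on the linear scale. Alternatives tried were array weights, an intensity trend, a block for the replicate number, quantile normalization, median centring, leaving out dim probe sets, other treatments of probe sets, a 1.2-fold minimum and mice left out.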

Additional observations from a re-analysis of the deposited data

How the results depend on the processing

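No member passed in any alternative except array weights, where 3 did (Bcl2, Bid and Bad), and leaving out wild-type mouse 1 and Gli1-/- mouse 2 together, where 1 did (Bad). Array weights rest mainly on wild-type mouse 2 (weight 7.22) and Gli1-/- mouse 3 (2.26), and their estimation stopped before its tolerance was met. They took the members' median to -0.018 and called 4 of 14 other relatives, 2 of 16 apoptosome genes and 7 of 12 inhibitors. In the remaining lists they called 6 of 16 death receptor genes, 9 of 22 p53 and stress genes and 2 of 18 handling genes. Of all genes they called 23.1%. Without the pair of mice, chosen with earlier results known, 6 members had separated groups (53.9% of all genes did) and the members' median was 0.0098. There 3 of 12 inhibitors and 4 of 22 p53 and stress genes were called, against 4.28% of all genes. With 1 mouse left out, 2 to 4 members were separated and the median was 0.061 to 0.18. Of all genes 36% were separated without wild-type mouse 1 and 20.4% without Gli1-/- mouse 3, where 4 members were. Under array weights Mcl1 reversed to -0.051 and Bax to -0.0395. Without the pair they reversed to -0.059 and -0.0028. With 1 mouse left out Mcl1 ranged from -0.053 (without wild-type mouse 1) to 0.053, Bcl2l11 from -0.0071 (without wild-type mouse 3) to 0.23, and Bbc3 from -0.11 to 0.056 (without wild-type mouse 3), with 0.02 without Gli1-/- mouse 3. The causes were not tested. The replicate number as a block called 25 of all genes, against 4, and 0 members (lowest limma adjusted p = 0.208). The samples share only a number: deviations of same-numbered mice correlated at 0.162, 0.248 and -0.153, and 3 of 6 mice correlated best with their own number. Over all genes limma called 4680 with array weights, 868 without the pair, 9 with median centring, 8 without dim probe sets and 3 to 17 with 1 mouse left out. Bbc3 and Gli1 have no value without dim probe sets. Signal over background was not measured in the deposited values, so what it limits is unknown.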
